A study of Arabidopsis thaliana with 12 samples.

Results

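The nuclear genes for light harvesting and for the photosystems were followed in whole seedlings of Arabidopsis thaliana, 42 genes out of the 32846 in the deposited table. They were taken by locus identifier from the families LHCB, LHCA, PSA and PSB. The rule used no measured value, but the set was chosen with earlier results of these data known. The set holds 9 genes of LHCB1 to LHCB3, 5 genes of LHCB4 to LHCB6, 6 LHCA genes, 12 PSA genes and 10 PSB genes. All 42 passed the filter on low values. The groups were the irr mutant treated with Pep1, the irr mutant treated with water, wild type (WT) treated with Pep1 and WT treated with water, with 3 libraries each and 12 in all. The mutant is labelled rrm as well as irr, and its allele is not described in the labels. AtPep1 is a short peptide that damaged plant cells release from a larger protein and that sets off immune signalling, and it was given at 1 µM for 24 h. The water libraries carry the label untreated, while the protocol names water. Every group shared the background Columbia 0, growth on half-strength MS medium to an age of 7 to 10 days, transfer to liquid medium with about 15 seedlings per well, and constant light during treatment. Whether the replicates were grown separately is not in the labels. The p-values therefore reflect no more than the scatter among these libraries, and that scatter may be technical.

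Light-harvesting complexes are chlorophyll-binding proteins of the thylakoid membrane that collect light and pass the energy to the photosystems. LHCB1, LHCB2 and LHCB3 form the antenna trimers of photosystem II, LHCB4 to LHCB6 are single antenna proteins that join trimers to the core, and LHCA proteins form the belt of photosystem I. The PSA and PSB genes measured here are those for the subunits that the nucleus encodes, while the reaction-centre proteins themselves are encoded in the chloroplast. In leaves these are among the most abundant messages, their transcription depends on light and on chloroplast signals, and they are known to fall in immune responses.

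LHCB1 is encoded by 5 genes, and LHCB1.2, LHCB1.1 and LHCB1.3 lie next to each other on chromosome 1. Their coding sequences of 804 bases differ at 47 positions among the 3 genes, 8 of which lie in the stretch from coding base 25 to 84. That stretch is shown because the division of reads among these genes rests on such positions. The sequences are from RefSeq (TAIR10.1), and capitals mark the bases at which at least 1 of the 3 genes differs.
LHCB1.1: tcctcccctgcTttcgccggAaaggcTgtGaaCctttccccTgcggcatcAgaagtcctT
LHCB1.2: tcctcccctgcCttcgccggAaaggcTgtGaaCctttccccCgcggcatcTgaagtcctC
LHCB1.3: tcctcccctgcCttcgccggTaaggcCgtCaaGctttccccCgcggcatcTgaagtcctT
LHCB1.1 and LHCB1.2 had 769 identical bases, LHCB1.1 and LHCB1.3 had 773, and LHCB1.2 and LHCB1.3 had 775. The longest identical runs in these pairs were 116, 119 and 74 bases. None of the 3 pairs shared an identical window of 150 bases, the read length stated in the labels. LHCB1.4 and LHCB1.5, neighbours on chromosome 2, shared a run of 122 bases, and LHCB2.1 and LHCB2.2, also neighbours there, shared a run of 137 bases. How the authors assigned reads that match several genes is not given in the sources used here, so values of single genes within LHCB1 and within LHCB2 are uncertain.

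Sequencing depth, recovered from the steps between FPKM values, was 17.4 to 28.6 M (1e+06) reads in 11 libraries and 56.5 M in irr water replicate 3. That library also stood apart in its chloroplast-encoded messages, which made up 11.1% of all FPKM, against 2.89% to 5.47% in the other 11. Pearson's r across genes between libraries reached down to 0.897 for irr Pep1 replicate 2, whose median r with the other libraries was 0.942, against medians of 0.963 to 0.975 elsewhere. AT3G23900, the locus of IRR, stood at 11.2 ± 0.573 FPKM in irr with Pep1, 11.95 ± 0.72 in irr with water, 11.6 ± 0.995 in WT with Pep1 and 12.8 ± 1.93 in WT with water (SD, n = 3 each). Its level did not separate the genotypes, so each genotype direction rests on the labels. All 12 shoot markers passed the filter, as did 9 of 13 root markers (COBL9, RHD6, PLT1 and WOX5 did not), and no marker was at 0 in every library.

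The 42 genes made up a large share of the RNA. Their summed FPKM was 19.7%, 16.1% and 24.2% of all FPKM in irr with Pep1, and 19.9%, 21.3% and 17.3% in irr with water. In WT it was 22.6%, 19.5% and 23.8% with Pep1, and 28.3%, 23.99% and 26.6% with water. All 3 WT water libraries lay above all 6 libraries of WT with Pep1 and irr with water, but irr Pep1 replicate 3 reached into their range. Group means were 20.0% ± 4.07 in irr with Pep1, 19.5% ± 2.05 in irr with water, 22.0% ± 2.22 in WT with Pep1 and 26.3% ± 2.17 in WT with water (SD, n = 3 each). Without the 5 LHCB1 genes the remaining 37 genes gave 11.1% ± 2.096 in irr with Pep1, 10.8% ± 1.19 in irr with water, 11.6% ± 0.947 in WT with Pep1 and 13.6% ± 0.695 in WT with water.

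**Figure D1:**
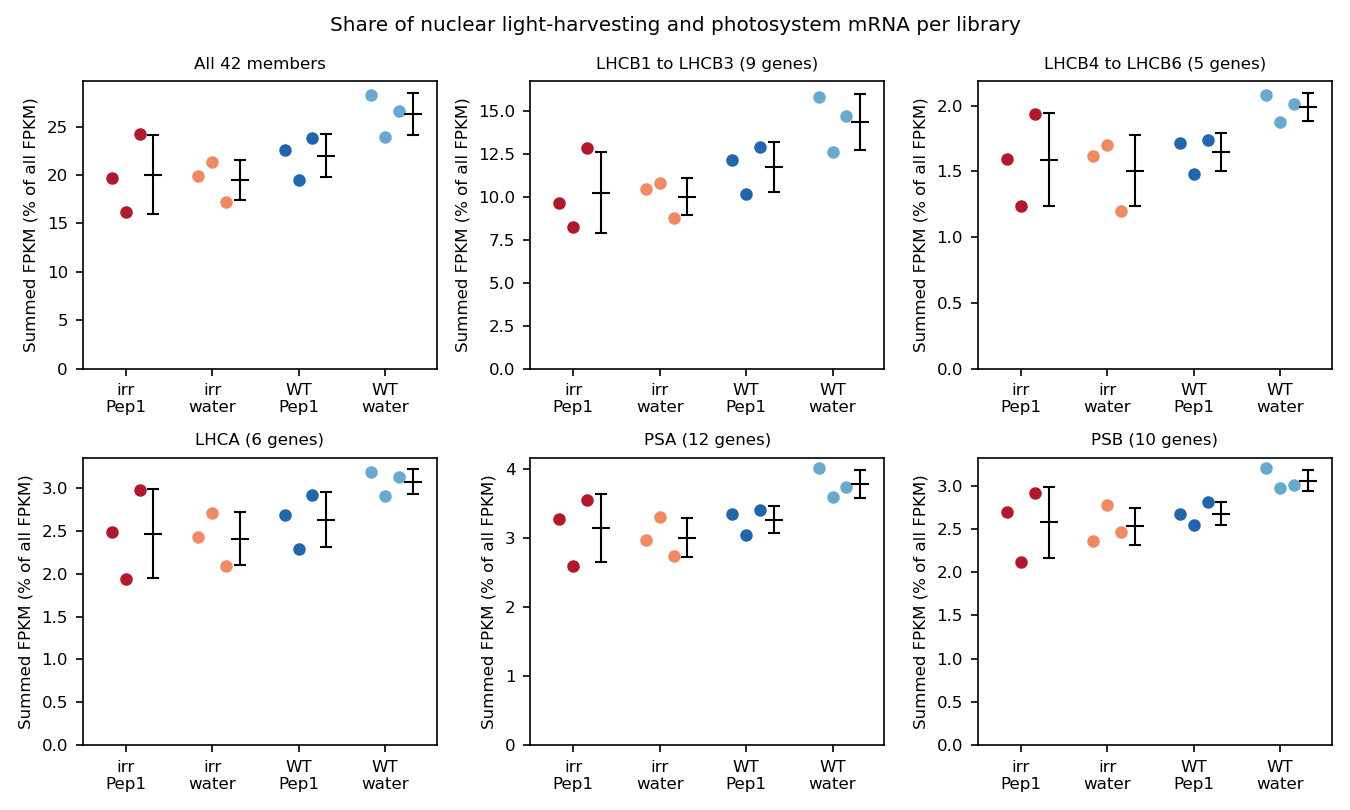
Summed FPKM of the 42 genes and of each family as a percentage of all FPKM (y axis, from 0) for each library (points), by group on the x axis, with the group mean ± SD (n = 3) at the right of each group. For all 42 genes the WT water libraries lie between 23.99% and 28.3%, and the irr Pep1 libraries are spread from 16.1% to 24.2%.

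In RNA from whole seedlings, fewer green cells and less of these messages per cell cannot be told apart. The 12 shoot markers summed to 234 to 337 FPKM in irr with Pep1, 303 to 389 in irr with water, 308 to 326 in WT with Pep1 and 379 to 475 in WT with water. WT with water held the highest sums, though its lowest library lay below the highest irr water library. Averaged over genotypes 3 of the 12 fell with Pep1, where 5.45% of all genes fell, and these were CER1 (-1.67 ± 0.17, adjusted p = 0.000569), PDF1 and FIL, the first 2 of which mark the epidermis. The 13 root markers summed to 76.2 to 83.1 FPKM in irr with Pep1, 79.4 to 95.5 in irr with water, 104 to 125 in WT with Pep1 and 76.0 to 100.97 in WT with water. Of the 9 tested, 1 rose with Pep1 averaged over genotypes, MYB36 (0.37 ± 0.10, adjusted p = 0.0349), where 11.6% of all genes were called. In that average 5 of the 9 had a negative value, and the median was -0.01. In WT alone the median was 0.58, and 1 was called higher and 0 lower, where 3.47% of all genes were called. In irr alone the median was -0.02, and 1 was called lower and 0 higher, where 1.99% of all genes were called. The part of tissue make-up in the differences of the 42 genes was not tested.

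Among all nuclear genes, ranks 1 to 4 by mean FPKM over the 12 libraries were held by LHCB1.3, LHCB1.5, LHCB1.4 and LHCB1.1, with means of 34384, 19513, 10763 and 8842 FPKM. FPKM is a value per length, so levels can be set side by side between genes. The ranks of single LHCB1 genes still depend on how reads that match several genes were assigned. Next among the 42 genes came LHCA4 at 7365, PSBR at 7224 and LHCB1.2 at 6591 FPKM, at ranks 6, 7 and 8 of all nuclear genes. The 4 lowest were PSBS at 221, LHCA5 at 89.6, LHCA6 at 25.1 and LHCB4.3 at 2.90 FPKM, the last with 41 to 174 reads per library, and next above them came PSAH1 at 615 FPKM. LHCB4.3, also called LHCB8, is a form of the minor antenna protein CP29 that is known to follow other conditions than LHCB4.1 and LHCB4.2.

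Libraries differed in these genes as a block. In irr Pep1 replicate 2, 33 of the 42 genes had their lowest level of all 12 libraries, and in WT water replicate 1, 36 had their highest. Within irr with Pep1, replicate 3 was highest for 36 genes and replicate 2 lowest for 41. On the log2 scale, the SD of a gene among replicates had a median of 0.29 in irr with Pep1, 0.16 in irr with water, 0.13 in WT with Pep1 and 0.10 in WT with water. Over all 18177 genes tested it was 0.19 in irr with Pep1, 0.16 in irr with water, 0.12 in WT with Pep1 and 0.14 in WT with water. Because the 42 genes rose and fell together between libraries of 1 group, counts of genes that share a direction do not stand for as many independent observations.

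**Figure D2:**
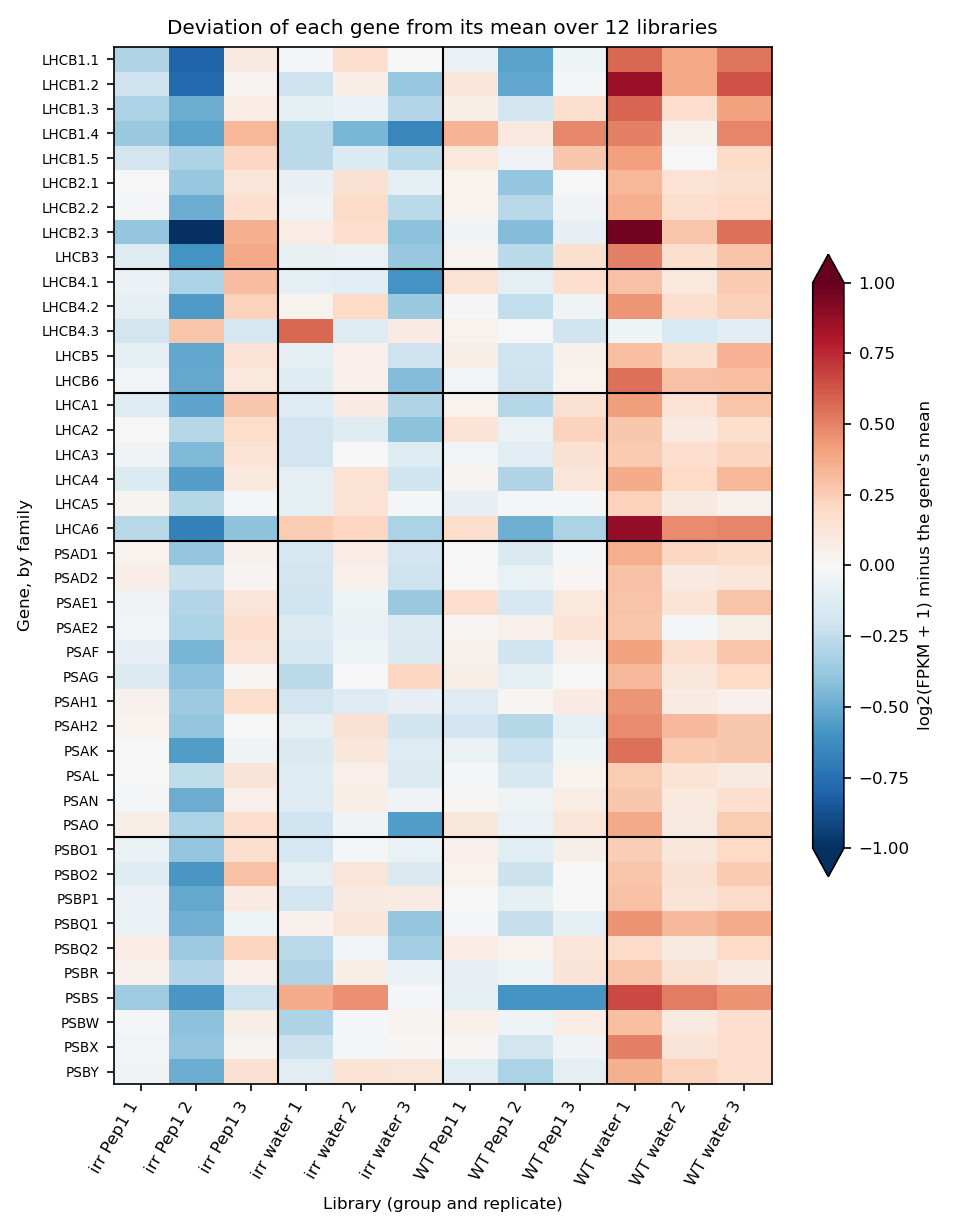
Each row is 1 of the 42 genes and each column 1 library, grouped as irr Pep1, irr water, WT Pep1 and WT water. Colour is log2(FPKM + 1) minus the gene's mean over the 12 libraries, red above and blue below it, and black lines part groups and families. The column of irr Pep1 replicate 2 is blue and that of WT water replicate 1 red for most genes, while LHCB4.3 departs from both.

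The first question was what Pep1 did to these genes after 24 h. Averaged over the 2 genotypes, 3 of the 42 genes fell and 0 rose by limma (adjusted p under 0.05 over all genes tested), where 11.6% of all genes were called and 5.45% were called lower. An unadjusted p under 0.05 was found for 9 of the 42 and for 28.9% of all genes. The genes were PSBS, LHCA6 and LHCB1.1. The median log2 difference of the 42 genes was -0.17, against 0.02 for all genes, and 35 of the 42 had a negative value, against 45.9% of all genes. Differences are given on the log2(FPKM + 1) scale with their SE.

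PSBS (AT1G44575) encodes the photosystem II protein that senses the acidity of the thylakoid lumen and switches on the release of excess light energy as heat. Its level was 164, 140.4 and 182 FPKM in irr with Pep1, against 272, 289 and 209 FPKM in irr with water. In WT it was 197, 139 and 139 FPKM with Pep1, against 334, 302 and 287 FPKM with water. Every Pep1 library lay below every water library of the same genotype, and PSBS was the only one of the 42 genes without overlap in irr. Averaged over genotypes it fell by 0.81 ± 0.11 (adjusted p = 0.00196). The difference was -0.65 ± 0.16 in irr (adjusted p = 0.0634) and -0.97 ± 0.16 in WT (adjusted p = 0.0117). The WT call was lost without WT Pep1 replicate 2 (adjusted p = 0.061), WT Pep1 replicate 3 (0.0525) or WT water replicate 1 (0.0603), and the irr difference passed without irr Pep1 replicate 3 (0.0298) or irr water replicate 3 (0.0435). The averaged fall was called in all 26 alternatives, with adjusted p of at most 0.00834.

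LHCA6 (AT1G19150) encodes a minor antenna protein that links photosystem I to the chloroplast NADH dehydrogenase-like complex. Its level was 19.5, 14.5 and 17.8 FPKM in irr with Pep1, against 28.5, 27.7 and 18.9 FPKM in irr with water. In WT it was 27.0, 16.7 and 19.0 FPKM with Pep1, against 44.7, 33.5 and 33.7 FPKM with water. The WT groups did not overlap, while irr Pep1 replicate 1 lay above irr water replicate 3. Averaged over genotypes LHCA6 fell by 0.66 ± 0.14 (adjusted p = 0.0141), a call kept in all 26 alternatives with adjusted p of at most 0.0397. It fell by 0.82 ± 0.20 in WT (adjusted p = 0.0461), a call kept in 16 of 27 alternatives, and leaving out WT water replicate 1 gave an adjusted p of 0.181. In irr the difference was -0.50 ± 0.20 (adjusted p = 0.216). LHCA5, its partner in the same link, stood between 73.0 and 105 FPKM in all libraries.

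LHCB1.1 (AT1G29920), one of the main trimer genes, stood at 6932, 4889 and 9078 FPKM in irr with Pep1, against 8443, 9639 and 8518 FPKM in irr with water. In WT it stood at 8195, 5879.5 and 8278 FPKM with Pep1, against 12686, 11164 and 12399 FPKM with water. The WT groups lay apart and the irr groups overlapped. The averaged fall of 0.55 ± 0.16 passed narrowly (adjusted p = 0.0426), and it passed in 9 of 26 alternatives. The difference was -0.39 ± 0.22 in irr (adjusted p = 0.377) and -0.71 ± 0.22 in WT (adjusted p = 0.0963).

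**Figure D3:**
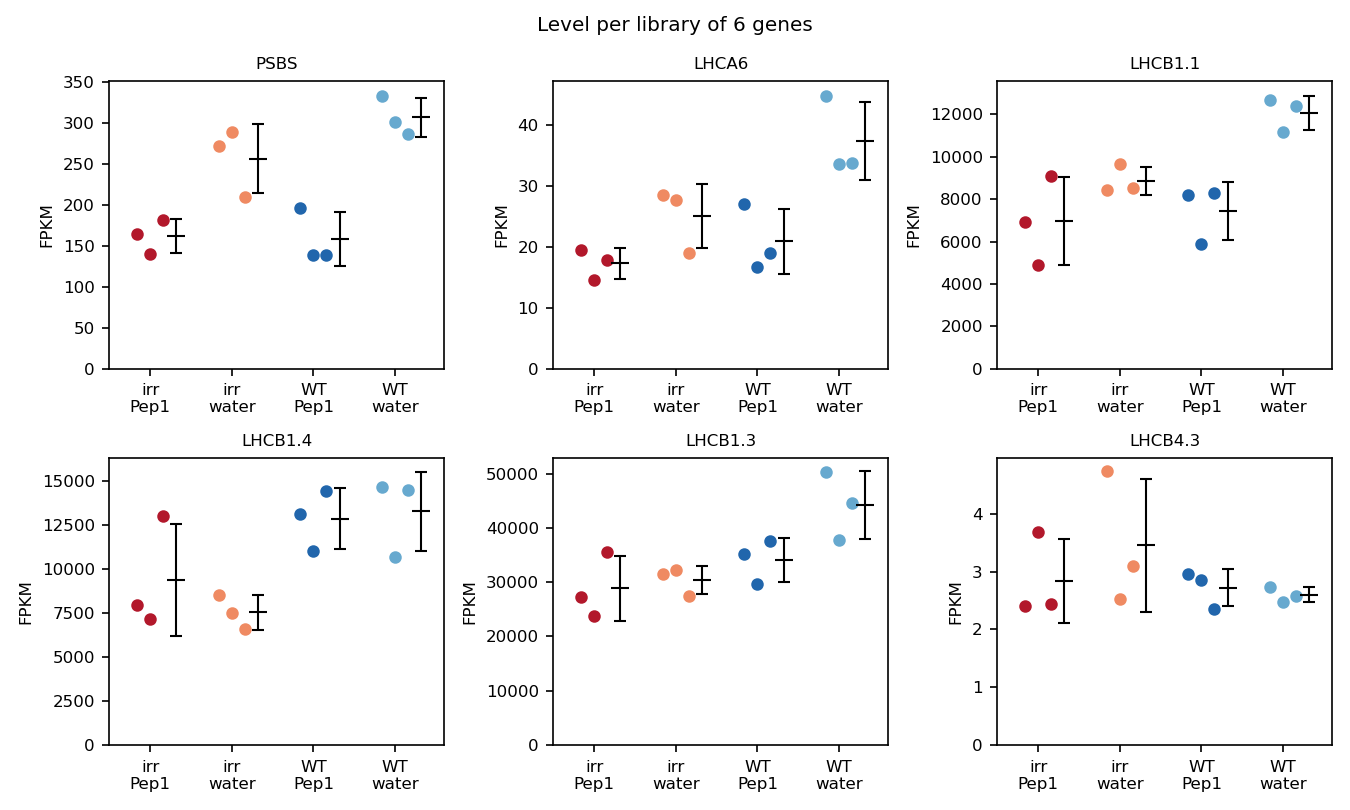
FPKM (y axes, from 0) of PSBS, LHCA6, LHCB1.1, LHCB1.4, LHCB1.3 and LHCB4.3 in each library (points), by group on the x axis, with the group mean ± SD (n = 3) at the right of each group. For PSBS the Pep1 libraries, at 139 to 197 FPKM, lie below the water libraries, at 209 to 334 FPKM.

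In WT alone, Pep1 lowered 2 of the 42 genes, PSBS and LHCA6, and raised 0 (3.47% of all genes were called, 1.34% lower). An unadjusted p under 0.05 was found for 12 of the 42 and for 20.9% of all genes. The median of the 42 genes was -0.29, against 0.04 for all genes. All but LHCB4.3 had a negative value, 41 of 42, against 42.7% of all genes. In 30 genes the 3 Pep1 libraries lay below the 3 water libraries, where 12.6% of all genes did so. The family medians were -0.34 for LHCB1 to LHCB3, -0.30 for LHCB4 to LHCB6, -0.26 for LHCA, -0.20 for PSA and -0.26 for PSB. After the called genes, the lowest adjusted p was that of PSAH2, a photosystem I subunit at the docking site of mobile trimers. PSAH2 (AT1G52230) stood at 815, 762 and 866 FPKM in WT with Pep1, against 1287, 1164 and 1120.1 FPKM with water (-0.55 ± 0.14, adjusted p = 0.0518). In irr it stood at 951, 704 and 933 FPKM with Pep1, against 874, 1034 and 809 FPKM with water, and these groups overlapped.

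In irr, Pep1 changed 0 of the 42 genes (limma; 2 had an unadjusted p under 0.05, PSBS and LHCA6), where 1.99% of all genes were called, 1.25% lower, and 18.2% had such a p. The median was -0.07, with 28 negative values, against 50.2% negative over all genes. Only PSBS had groups that did not overlap, where 10.8% of all genes lay lower in this way. The interaction of genotype and treatment was called for 0 of the 42 genes and 0 of all genes (limma; 1 of the 42, PSAH2, and 1219 of all genes, 6.71%, had an unadjusted p under 0.05). Its median over the 42 genes was 0.28, against -0.04 for all genes, and 41 values were positive, so the point estimates of the Pep1 effect were less negative in irr than in WT in all but LHCB4.3. No single gene showed a tested difference, and the size of the median turned on the irr Pep1 libraries: it was 0.43 without irr Pep1 replicate 2 and 0.13 without irr Pep1 replicate 3. The median Pep1 effect in irr was 0.12 without irr Pep1 replicate 2 and -0.15 without irr Pep1 replicate 3.

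**Figure D4:**
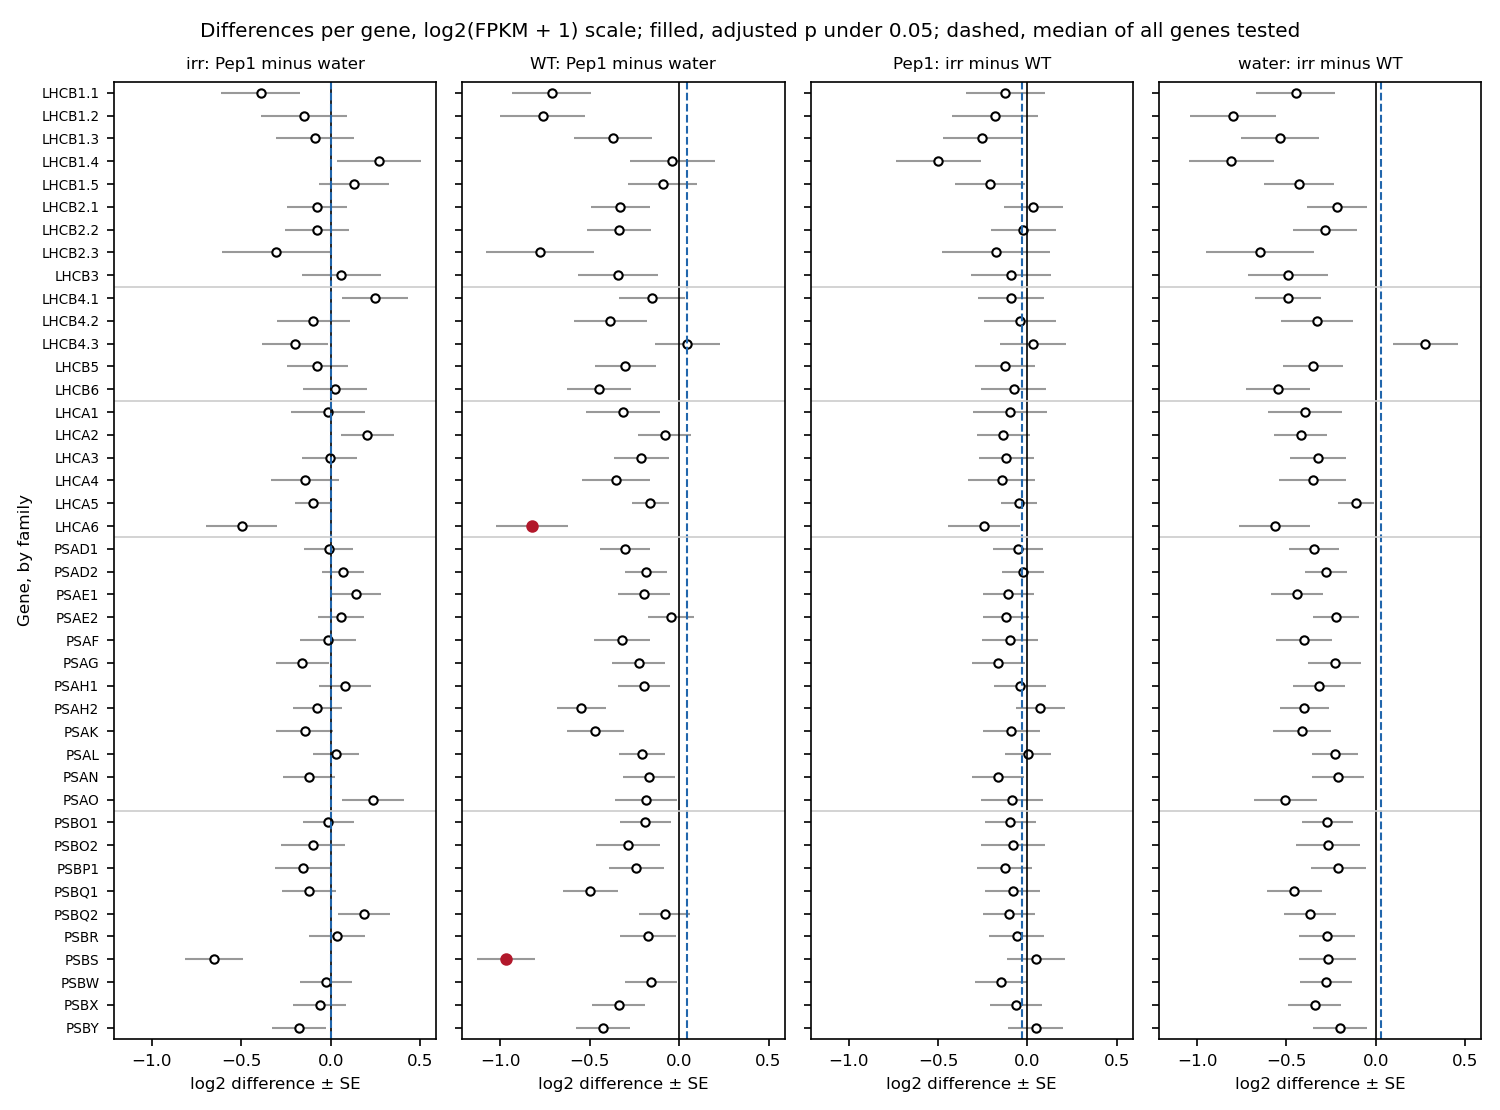
Log2 difference ± SE (x axes) of each of the 42 genes (y axis, by family) for Pep1 minus water in irr and in WT, and for irr minus WT with Pep1 and with water. Filled red points have an adjusted p under 0.05 (PSBS and LHCA6 in WT), the solid line is 0 and the dashed line is the median of all genes tested. In WT with Pep1 and in irr with water 41 of 42 points lie left of 0, and these 2 comparisons share the WT water libraries.

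The second question was how irr differed from WT. Under water 0 of the 42 genes were called (limma; 19 had an unadjusted p under 0.05), where 3.92% of all genes were called, 0.963% lower, and 21.9% had such a p. The median was -0.35, against 0.03 for all genes, and 41 of 42 values were negative, against 45.3% of all genes. In 35 genes the 3 irr libraries lay below the 3 WT libraries, where 10.4% of all genes did so. The family medians were -0.49 for LHCB1 to LHCB3, -0.35 for LHCB4 to LHCB6, -0.37 for LHCA, -0.33 for PSA and -0.27 for PSB. This comparison and that of Pep1 in WT use the same 3 WT water libraries, so the 2 sets of values are not independent.

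With Pep1 in both genotypes, 0 of the 42 genes were called between irr and WT (limma; 0 had an unadjusted p under 0.05), where 1.53% of all genes were called, 0.363% lower, and 17.7% had such a p. The median was -0.09, against -0.03 for all genes, with 36 negative values, where 55.4% of all genes were negative. No gene had groups that lay apart with irr lower, where 12.8% of all genes did. Averaged over treatments, 1 gene was lower in irr, LHCB1.4, and 0 were higher, where 12.4% of all genes were called and 3.9% were called lower. An unadjusted p under 0.05 was found for 14 of the 42 and for 29.7% of all genes. The median was -0.22, with 41 negative values, against 50.6% of all genes.

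LHCB1.4 (AT2G34430) stood at 7974, 7134 and 13012.5 FPKM in irr with Pep1, against 13105, 11051 and 14446 FPKM in WT with Pep1. Under water it stood at 8550.2, 7509.9 and 6574 FPKM in irr, against 14661, 10669 and 14474 FPKM in WT. The water groups did not overlap, and irr Pep1 replicate 3 lay within the WT range. The averaged difference was -0.65 ± 0.17 (adjusted p = 0.0276), called in 16 of 26 alternatives. It was -0.81 ± 0.24 under water (adjusted p = 0.0797) and -0.50 ± 0.24 with Pep1 (adjusted p = 0.298). Without irr water replicate 3 the averaged adjusted p was 0.0669, and without WT water replicate 1 it was 0.072.

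The other trimer genes differed in how much they moved. LHCB1.3 (AT1G29930), the most abundant, stood at 27252, 23852 and 35493 FPKM in irr with Pep1 and at 31460.4, 32154 and 27423 FPKM in irr with water. In WT it stood at 35263, 29647 and 37531 FPKM with Pep1 and at 50279, 37729 and 44521 FPKM with water. All WT water libraries lay above all others. Its Pep1 difference averaged -0.23 ± 0.16 (adjusted p = 0.356) and its genotype difference -0.40 ± 0.16 (adjusted p = 0.115). LHCB1.2 (AT1G29910) stood at 5440.4, 3657 and 6386 FPKM in irr with Pep1, 5435, 6579 and 4831 FPKM in irr with water, 6831, 4372 and 6222 FPKM in WT with Pep1, and 11404, 8194 and 9745 FPKM in WT with water. Here too every WT water library was above the other 9, and the averaged genotype difference was -0.49 ± 0.17 (adjusted p = 0.0792). LHCB2.3, the lowest of the trimer genes, stood at 446, 283 and 749 FPKM in irr with Pep1, 615, 661 and 439 FPKM in irr with water, 572, 433 and 551 FPKM in WT with Pep1, and 1140.2, 708 and 856 FPKM in WT with water. Its averaged Pep1 difference was -0.54 ± 0.21 (adjusted p = 0.119), close in size to that of LHCB1.1 but with a larger error. LHCB2.1, LHCB2.2 and LHCB3 lay between 2088 and 5396 FPKM over all libraries.

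Among the minor antenna genes, LHCB5 (CP26) was the most abundant, at 3665, 2733 and 4339 FPKM in irr with Pep1, 3689.98, 4064 and 3393 FPKM in irr with water, 4084, 3411 and 4047 FPKM in WT with Pep1, and 4836, 4384 and 4979 FPKM in WT with water. LHCB6 (CP24) stood at 2868, 2055 and 3156 FPKM in irr with Pep1, 2696, 3038 and 2163 FPKM in irr with water, 2869.6, 2536 and 3007 FPKM in WT with Pep1, and 4293, 3587 and 3602 FPKM in WT with water. In both genes the WT water libraries lay above all others. The averaged genotype difference of LHCB6 was -0.31 ± 0.13 (adjusted p = 0.127). For CP29, LHCB4.1 stood at 3361, 2824 and 4347 FPKM in irr with Pep1, 3276, 3253 and 2319.9 FPKM in irr with water, 3876, 3273 and 3941 FPKM in WT with Pep1, and 4301, 3782 and 4208 FPKM in WT with water. LHCB4.2 stood at 2505, 1807 and 3137 FPKM in irr with Pep1, 2736, 3069 and 2071 FPKM in irr with water, 2647, 2249 and 2610.1 FPKM in WT with Pep1, and 3639, 3006 and 3159.95 FPKM in WT with water. The irr libraries of LHCB4.1 under water were below all WT libraries but WT Pep1 replicate 2, and its averaged genotype difference was -0.29 ± 0.13 (adjusted p = 0.161). LHCB4.3 stood at 2.40, 3.68 and 2.44 FPKM in irr with Pep1, 4.74, 2.53 and 3.09 FPKM in irr with water, 2.96, 2.85 and 2.36 FPKM in WT with Pep1, and 2.74, 2.48 and 2.58 FPKM in WT with water. It was the only gene of the 42 with a positive averaged genotype difference, and its groups overlapped in every comparison.

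LHCA1 to LHCA4 ranged from 2616 to 9401 FPKM over the 12 libraries. LHCA4, the partner of LHCA1 in the belt and the most abundant LHCA gene, stood at 6591, 4964 and 7745 FPKM in irr with Pep1, 6786, 8004 and 6305 FPKM in irr with water, 7375, 5892 and 7873 FPKM in WT with Pep1, and 9401, 8326.5 and 9116 FPKM in WT with water. Every WT water library was above the other 9. Its averaged Pep1 difference was -0.25 ± 0.13 (adjusted p = 0.242). LHCA2 stood at 3481, 2853 and 3922 FPKM in irr with Pep1, 3041, 3199 and 2616 FPKM in irr with water, 3819, 3327 and 4059 FPKM in WT with Pep1, and 4194, 3701 and 3933 FPKM in WT with water. For LHCA2 the irr water libraries were the low ones within their treatment, and the averaged genotype difference was -0.28 ± 0.10 (adjusted p = 0.103).

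The PSA genes encode the stromal ridge where ferredoxin docks (PSAD and PSAE), the plastocyanin side (PSAF and PSAN) and the edges where antennas bind (PSAG, PSAK, PSAH, PSAL and PSAO). Their averaged Pep1 differences lay between -0.31 and 0.03. Those of LHCB1 to LHCB3 lay between -0.55 and 0.12, of LHCB4 to LHCB6 between -0.24 and 0.05 and of LHCA between -0.66 and 0.06. The averaged genotype differences of the PSA genes lay between -0.30 and -0.11, a narrower range than in each antenna family. By limma 0 of 12 PSA genes were called in either comparison, where 11.6% of all genes were called for Pep1 and 12.4% for genotype. An unadjusted p under 0.05 was found for 2 of 12 for Pep1, against 28.9% of all genes, and for 4 of 12 for genotype, against 29.7%. PSAK stood at 2263, 1545 and 2219 FPKM in irr with Pep1, 2052, 2465 and 2079 FPKM in irr with water, 2169, 1963 and 2202 FPKM in WT with Pep1, and 3331, 2719 and 2747 FPKM in WT with water, with an averaged Pep1 difference of -0.31 ± 0.11 (adjusted p = 0.099). PSAE1 stood at 2589, 2169 and 2881 FPKM in irr with Pep1, 2312, 2555 and 2053 FPKM in irr with water, 2982, 2375 and 2855 FPKM in WT with Pep1, and 3231, 2917 and 3231 FPKM in WT with water. The averaged genotype difference was -0.27 ± 0.10 for PSAE1 (adjusted p = 0.0979) and -0.30 ± 0.12 for PSAO (adjusted p = 0.134). PSAH1, the lowest PSA gene, stood at 628, 474 and 687 FPKM in irr with Pep1, 537, 558 and 576 FPKM in irr with water, 558, 616 and 646 FPKM in WT with Pep1, and 827, 644 and 627 FPKM in WT with water. PSAO, the most abundant PSA gene, stood at 4240.5, 3273 and 4607 FPKM in irr with Pep1, 3546, 3988 and 2763 FPKM in irr with water, 4421, 3889 and 4441 FPKM in WT with Pep1, and 5307, 4339 and 4857 FPKM in WT with water. The irr water libraries of PSAO lay below every WT library, except that irr water replicate 2 passed WT Pep1 replicate 2.

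Among the PSB genes, those for the oxygen-evolving complex on the lumen side (PSBO, PSBP and PSBQ) and for small subunits (PSBR, PSBW, PSBX and PSBY) had no call in any comparison. PSBR was the most abundant, at 7403, 5851 and 7453 FPKM in irr with Pep1, 5812, 7483 and 6873 FPKM in irr with water, 6765, 6921 and 7836 FPKM in WT with Pep1, and 8686, 7976 and 7630.1 FPKM in WT with water, and its Pep1 groups overlapped the water groups in both genotypes. PSBQ1 stood at 1001, 751 and 1019 FPKM in irr with Pep1, 1081, 1139.97 and 803 FPKM in irr with water, 1032, 896 and 984 FPKM in WT with Pep1, and 1434, 1315 and 1355 FPKM in WT with water. Its averaged Pep1 difference was -0.31 ± 0.11 (adjusted p = 0.0839) and its genotype difference -0.27 ± 0.11 (adjusted p = 0.123). PSBQ2, the second gene for this subunit, stood at 1605, 1181 and 1765 FPKM in irr with Pep1, 1265, 1490.45 and 1205 FPKM in irr with water, 1604, 1557 and 1656 FPKM in WT with Pep1, and 1742, 1619.7 and 1737 FPKM in WT with water, and had a genotype difference of -0.24 ± 0.10 (adjusted p = 0.151).

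The balance between copies of a gene can be read within a library, where the scaling of the library cancels. PSBQ1 made up 38.4%, 38.9% and 36.6% of PSBQ1 and PSBQ2 in irr with Pep1, against 46.1%, 43.3% and 39.99% in irr with water. In WT it made up 39.2%, 36.5% and 37.3% with Pep1, against 45.1%, 44.8% and 43.8% with water. Every Pep1 library was below every water library. LHCB4.1 made up 57.3%, 61.0% and 58.1% of LHCB4.1 and LHCB4.2 in irr with Pep1, against 54.5%, 51.5% and 52.8% in irr with water. In WT its share was 59.4%, 59.3% and 60.2% with Pep1, against 54.2%, 55.7% and 57.1% with water, so the Pep1 libraries were the higher ones within each genotype. PSAH1 had 40.8% ± 1.43 of PSAH1 and PSAH2 in irr with Pep1, 38.2% ± 3.27 in irr with water, 42.7% ± 2.03 in WT with Pep1 and 36.9% ± 1.95 in WT with water (SD, n = 3 each), and its irr groups overlapped. PSBS made up 0.107%, 0.114% and 0.0974% of the 42 genes in irr with Pep1, against 0.178%, 0.172% and 0.146% in irr with water, and 0.111%, 0.0918% and 0.0749% in WT with Pep1, against 0.144%, 0.16% and 0.137% in WT with water. Its share, like its level, was lower in every Pep1 library than in any water library. These shares were picked after their values were seen and are given with no test.

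LHCB1.4 held 31.95%, 31.5% and 36.9% of LHCB1.4 and LHCB1.5 in irr with Pep1, against 38.7%, 37.0% and 38.3% in WT with Pep1. Under water it held 34.8%, 30.0% and 29.1% in irr, against 36.4%, 35.5% and 39.5% in WT. The irr libraries were the lower ones in both treatments, though with Pep1 the nearest libraries stood at 36.9% in irr and 37.0% in WT. This share was also picked after its values were seen and is given with no test. It rests on how reads were divided between the 2 genes, which is uncertain. LHCB1.5 itself had an averaged genotype difference of -0.32 ± 0.14 (adjusted p = 0.146). PSBO1 kept between 80.1% and 83.4% of PSBO1 and PSBO2 in all 12 libraries.

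**Figure D5:**
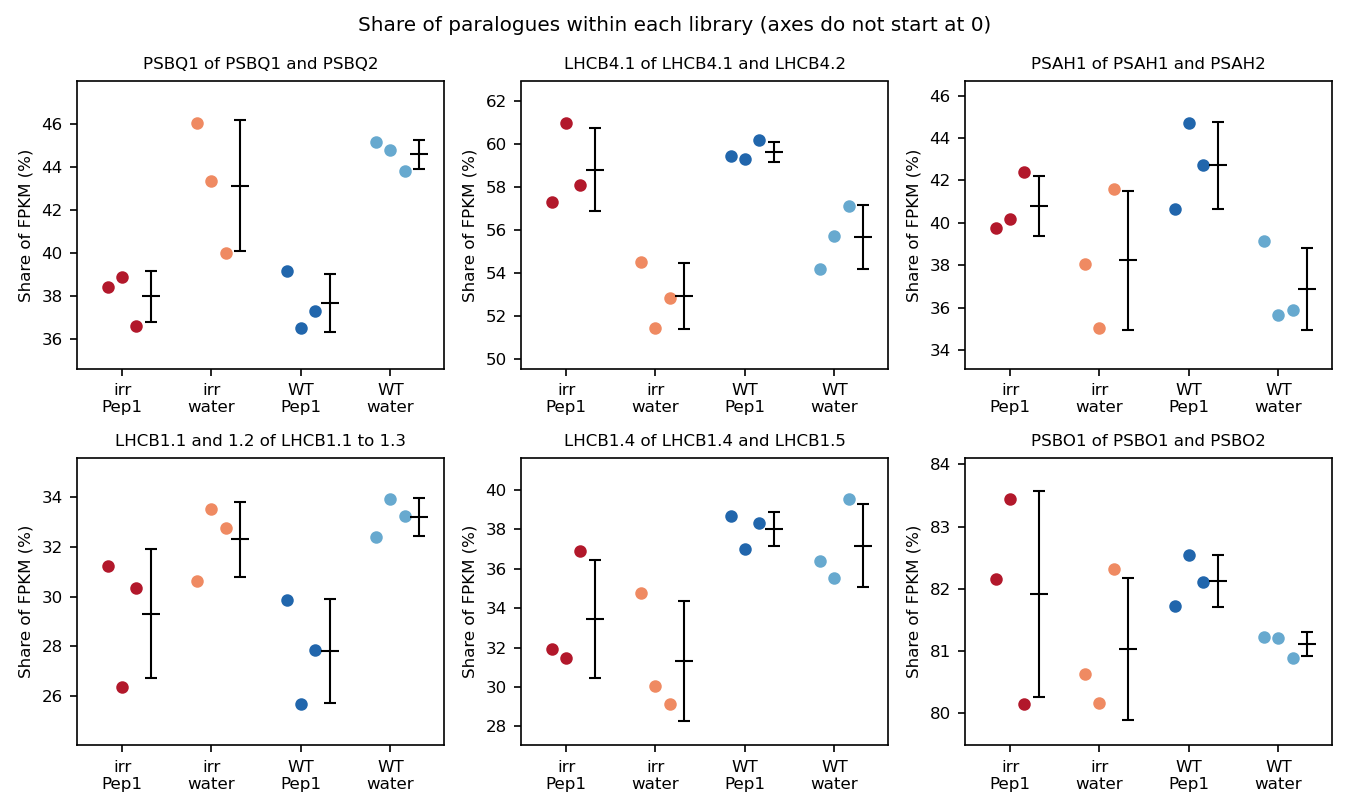
Share of summed FPKM (y axes, percent, not starting at 0) held by 1 gene or gene pair among close copies, for each library (points) by group on the x axis, with the group mean ± SD (n = 3) at the right of each group. The PSBQ1 share is 36.5% to 39.2% in the Pep1 libraries and 39.99% to 46.1% in the water libraries, while the PSBO1 share stays between 80.1% and 83.4%.

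The 250 bases before the annotated gene start (RefSeq, TAIR10.1) were searched on both strands for sequence motifs known from light-regulated and clock-regulated promoters, none of which contains another. CCAATC was present in 11 of the 42 genes, 26.2%, against 10.2% of 27438 protein-coding nuclear genes. It was in 5 of 9 genes of LHCB1 to LHCB3, 3 of 6 LHCA genes and 0 of 12 PSA genes. The G-box CACGTG was present in 8 genes, 19.0% against 6.5%, and the I-box GATAAG in 9 genes, 21.4% against 12.3%. AAAAATCT or AACAATCT, the letters bound by the clock protein CCA1, were in 6 genes, 14.3% against 8.4%, LHCB1.1 and LHCB1.4 among them. The evening element AAAATATCT was in 1 gene, LHCA5, 2.4% as in all genes. The other genes with the CCA1 letters were LHCA4, PSAE2, PSAN and PSAO. None of the motifs were found in the windows of PSBS and LHCA6. The same held for many genes without a call, among them LHCB1.2, LHCB3, LHCB5, LHCA2, PSAE1, PSBO1, PSBR and PSBX, so it does not set PSBS and LHCA6 apart.

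Genes of the wider photosynthesis pathway were counted in the same fit. Of 22 genes for chlorophyll synthesis, 10 fell with Pep1 averaged over genotypes and 0 rose, where 5.45% of all genes fell, and their median was -0.32, against 0.02 for all genes. The largest of these falls was in DVR, the reductase that makes monovinyl chlorophyll precursors, at 9.67, 7.99 and 10.3 FPKM in irr with Pep1 against 18.4, 19.9 and 13.7 FPKM in irr with water, and 10.7, 13.6 and 7.93 FPKM in WT with Pep1 against 30.9, 25.4 and 23.1 FPKM in WT with water (-1.03 ± 0.13, adjusted p = 0.00133). CHLG, chlorophyll synthase, fell by 0.62 ± 0.08 (adjusted p = 0.00156). In irr 2 of the 22 fell, CHLG and HEME2, where 1.25% of all genes fell. In WT 6 fell, among them DVR, CHLG and the magnesium chelatase genes CHLI1 and CHLI2, where 1.34% of all genes fell. Under water 2 of the 22 were lower in irr than in WT, where 0.963% of all genes were: PORB and PORC, which encode light-dependent protochlorophyllide reductases, with PORB at 133, 123 and 117 FPKM in irr against 328, 238 and 205 FPKM in WT (-1.01 ± 0.16, adjusted p = 0.0128). Averaged over treatments 5 of the 22 were lower in irr and 0 were higher, where 3.9% of all genes were lower, and their median was -0.19.

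Of 14 genes for electron transport and ATP synthase, 5 fell with Pep1 averaged over genotypes and 0 rose (median -0.25, where 5.45% of all genes fell): the ferredoxin genes FD1 (-0.50 ± 0.07, adjusted p = 0.00179) and FD2 (-0.53 ± 0.13, adjusted p = 0.0211), the plastocyanin genes PETE1 and PETE2, and PGRL1A of cyclic electron flow. Of 18 genes for Rubisco and the Calvin cycle, 6 fell and 0 rose (median -0.24) in that comparison, among them the small subunit genes RBCS1A (-0.38 ± 0.10, adjusted p = 0.0289) and RBCS1B (-0.43 ± 0.12, adjusted p = 0.0432), while 0 of 18 were called in the averaged genotype comparison (limma; 2 had an unadjusted p under 0.05, against 12.4% called and 29.7% with such a p over all genes). Of 7 genes for chlorophyll breakdown, 1 was called for Pep1 averaged over genotypes, where 11.6% of all genes were called. It was PAO, which opens the ring, and it rose (0.42 ± 0.09, adjusted p = 0.0135). In irr averaged over treatments 2 of the 7 were higher, where 12.4% of all genes were called: PAO and PPH (0.50 ± 0.09, adjusted p = 0.0061, and 0.43 ± 0.08, adjusted p = 0.00761). Of the 14 genes for electron transport and ATP synthase, 1 was lower in irr averaged over treatments, where 3.9% of all genes were lower. It was LFNR2 (-0.20 ± 0.06, adjusted p = 0.0416). For the 42 genes the counts called were 3 for Pep1 and 1 for irr in the same fit, where 11.6% and 12.4% of all genes were called.

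Of 9 genes for antenna import and phosphorylation, 1 rose with Pep1 averaged over genotypes, where 11.6% of all genes were called. It was TAP38, the phosphatase that acts on the mobile trimers (0.31 ± 0.06, adjusted p = 0.00891). In irr averaged over treatments 1 of the 9 was lower, where 12.4% of all genes were called and 3.9% were called lower. That gene was CPSRP54, which guides LHC proteins to the membrane (-0.31 ± 0.08, adjusted p = 0.035). Of the photoprotection and LHC-like list, 8 of 10 were tested, since ELIP1 and ELIP2 were below the filter. With Pep1 averaged over genotypes 3 of the 8 fell, where 5.45% of all genes fell: LIL3 (-0.51 ± 0.09, adjusted p = 0.00691), LIL3.2 and SEP1. In irr averaged over treatments 2 of the 8 were lower and 1 was higher, where 12.4% of all genes were called and 3.9% were called lower. The lower ones were NPQ1, the enzyme that makes zeaxanthin in strong light (-0.39 ± 0.07, adjusted p = 0.00548), and LIL3 (-0.38 ± 0.09, adjusted p = 0.0228). The higher one was SEP2 (0.28 ± 0.06, adjusted p = 0.0192). Among 19 regulators, 1 rose with Pep1 averaged over genotypes (GUN1) and 1 fell (SIG1), where 11.6% of all genes were called. In irr averaged over treatments 1 regulator was higher (HYH) and 2 were lower (GLK1 and PIF1), where 12.4% of all genes were called. GLK1, a transcription factor that promotes LHC and chlorophyll genes, stood at 33.3, 37.1 and 28.6 FPKM in irr under water, against 72.3, 68.1 and 54.5 FPKM in WT (-0.95 ± 0.17, adjusted p = 0.0188). With Pep1 it stood at 61.1, 39.8 and 38.2 FPKM in irr, against 45.0, 49.2 and 48.9 FPKM in WT, and these groups overlapped. LHY, a clock gene, was higher in irr than in WT under water (0.78 ± 0.17, adjusted p = 0.0304) and rose with Pep1 in WT (0.72 ± 0.17, adjusted p = 0.0395).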

How the data were processed

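The authors deposited 1 table of FPKM values (fragments per kilobase of transcript, scaled to M, 1e+06, fragments) for 32846 genes, 1 column per library. How reads were aligned and counted, and on which genome build and annotation, was not given in the sources used here, so no coordinates are printed. Reads were paired, 150 bases long, with 20 M raw reads stated, per the labels' protocols. Library totals were recovered from the steps between FPKM values and tested on simulated data. They bear on counting error only.

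Genes reaching FPKM 1 in 3 or more libraries (18177) entered the fit as log2(FPKM + 1). limma 3.58.1 (R 4.3.3) fitted a mean for each of the 4 groups, with 8 residual degrees of freedom and the prior variance allowed to follow expression. The script was tested on simulated data. Tests were two-sided, p-values were adjusted by Benjamini-Hochberg over all 18177 genes in a comparison, and the threshold was 0.05. Pep1 was set against water in each genotype and averaged, irr against WT in each treatment and averaged, and the interaction was tested. The comparisons share groups and are not independent.

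The 42 genes, the 9 other gene lists and the tests were chosen with earlier results of these data known. Values per library are given for genes called in any comparison and, in each family, for the genes of highest and lowest mean and the 2 with the largest averaged difference for Pep1 and for genotype. Of the other lists up to 4 called genes are named per comparison, except that all 5 are named for electron transport and ATP synthase with Pep1. Coding sequences and the bases before gene starts came from RefSeq TAIR10.1 and were read with Biopython 1.88. Figures were drawn with matplotlib 3.10.9.

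The settings varied were the pseudocount (0.1, 5), the filter (none, mean of 5 FPKM), the scaling (equal medians, quantiles, column sums, and sums over the other nuclear genes), a block for replicate number, the trend, quality weights, the groups in the fit and each library in turn. Scaling to the other nuclear genes, with and without irr water replicate 3, and leaving out irr water replicate 3 with irr Pep1 replicate 2 or 3, were added after seeing the data.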

Additional observations from a re-analysis of the deposited data

How the results depend on the processing

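Of the log2 differences of named genes under the alternatives, 927 kept direction and side of the threshold, 58 passed it newly, 41 lost it and 1 reversed, LHCA4 for Pep1 averaged over genotypes, at 0.092 with quantile normalization. The counts called among the 42 genes moved more, and the cause was not tested. A changed count among the 42 genes is not by itself a result about them, since the counts over all genes moved as well. For Pep1 they ran from 105 to 2025 in WT (630 in the fit above), 0 to 1586 in irr (362) and 1116 to 3537 averaged (2100). For irr against WT they ran from 46 to 1431 under water (713), 18 to 1821 with Pep1 (278) and 1103 to 3266 averaged (2262). For Pep1 in WT (2 called), the count was 1 with no filter, with equal column sums or with no trend, 9 with quality weights or with only the 2 groups compared, 5 without irr water replicate 3 and irr Pep1 replicate 3, and 8 without irr water replicate 3 and irr Pep1 replicate 2. For Pep1 in irr (0 called) it was 1 with quality weights and 1 without irr water replicate 3 and irr Pep1 replicate 3. For irr against WT under water (0 called) it was 2 with quantile normalization and 1 with quality weights, and with Pep1 (0 called) it was 1 with quality weights and 1 without irr water replicate 3 and irr Pep1 replicate 3. For Pep1 averaged over genotypes (3 called) it was 6 with quality weights and 10 without irr water replicate 3 and irr Pep1 replicate 3. For irr averaged over treatments (1 called) it was 0 with no filter, 2 with no trend, 4 with quality weights, 0 without irr water replicate 3 under equal sums over other nuclear genes, and 0 without irr water replicate 3 and irr Pep1 replicate 2.

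Leaving out 1 library at a time gave 0 to 8 called for Pep1 in WT (0 without WT Pep1 replicate 2, 8 without irr Pep1 replicate 2), 0 to 1 for Pep1 in irr, 0 to 4 for irr under water, 0 to 1 for irr with Pep1, 2 to 7 for Pep1 averaged, 0 to 7 for irr averaged and 0 for the interaction. Over all genes the counts were 105 to 1048 for Pep1 in WT, 0 to 1405 for Pep1 in irr, 46 to 1431 for irr under water and 24 to 1646 for irr with Pep1. They were 1116 to 3240 for Pep1 averaged, 1314 to 3266 for irr averaged and 0 to 7 for the interaction. The median of the 42 genes then ran from -0.33 to -0.21 for Pep1 in WT, -0.15 to 0.12 for Pep1 in irr, -0.43 to -0.31 for irr under water, -0.23 to 0.06 for irr with Pep1, -0.24 to -0.09 for Pep1 averaged, -0.28 to -0.14 for irr averaged and 0.13 to 0.43 for the interaction. Without irr water replicate 3 and irr Pep1 replicate 3 the interaction median was 0.087 and the median for Pep1 in irr -0.20.

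Replicate numbers gave no clear sign of pairing. Of 18 same-numbered pairs, 3 had deviations correlated above 0.1 (r from -0.52 to 0.19), and 2 of 12 libraries correlated best with their own number. Deviations from means of 3 libraries cannot exclude a pairing. Between WT Pep1 and WT water alone, each library correlated best with its own number, though r was only 0.037, 0.032 and 0.049. With the replicate block the count for irr averaged over treatments was 2, and LHCA6 passed there (adjusted p = 0.0368).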
